A study of Mus musculus with 12 samples.

Results

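Liver sinusoidal endothelial cells (LSEC) purified from mice with nonalcoholic steatohepatitis (NASH) were set against whole liver from mice with the same disease. The comparison takes the NASH libraries of the series only: 3 LSEC libraries and 3 whole liver libraries, 6 of 12 in all. The 6 chow libraries enter 1 later comparison. Genes were kept where their symbol stands in the deposited tables of both tissues, which gave 15766 genes. All mice were C57BL/6. The NASH groups were fed diet D09100301 of Research Diets and the control groups chow; the labels state 36 weeks of the diet in a protocol attached to every sample, chow included. Per the labels, LSEC were taken from non-parenchymal liver cells, first by removing cells that carry CD11b (a myeloid surface protein) and then by collecting cells that carry CD146 (a junction protein of vessels) on magnetic beads. The LSEC are thus a bead-selected fraction and not a single-cell sort, and the whole liver holds endothelial cells too. Liver libraries were made with a TruSeq RNA kit that does not mark strand.

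LSEC line the capillary-like sinusoids of the liver. They have open pores and no continuous basement membrane, clear waste from blood through scavenger receptors, and send Wnt and bone morphogenetic protein (BMP) signals to the hepatocytes beside them. Hepatocytes make most plasma proteins, bile acids and lipoproteins, and they fill most of the organ. In NASH, fat in hepatocytes goes together with inflammation, matrix deposition and changes of the sinusoidal wall.

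Depth was 18749834 to 19402863 recovered reads per LSEC library and 47000197 to 53136556 per liver library. Values below are in CPM (recovered reads per 1000000 reads of the library), with the totals corrected with TMM factors (trimmed mean of M values, a scaling that sets the bulk of genes equal) over the 6 libraries. Log2 differences are LSEC minus liver on log2(value + 0.5), with the standard error (SE) and the adjusted p-value from limma with Benjamini-Hochberg adjustment. A gene is called where that p is under 0.05, and called past 4-fold where a second limma test puts the difference beyond 2 on the log2 scale. No label states whether the replicates came from different animals, so the p-values reflect only the scatter among these libraries, and that scatter may be technical. Tissue, cell isolation, library preparation and the authors' separate tables go together and cannot be told apart.

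Several genes that every cell uses stood far apart between the tables. The ribosomal protein gene Rps29 had 0.217, 0.252 and 0.128 in LSEC and 294, 204 and 253 in liver. Gapdh, a glycolysis enzyme gene, had 13.3, 13.4 and 10.1 in LSEC and 1075, 1093 and 950.2 in liver. Of 78 ribosomal protein genes with a mean of at least 50 in liver, 73 were called lower and 26 were below 5 in LSEC, but Rps3 (log2 difference 0.01) and Rpl4 (-0.14) were near 0. Genes with several near-identical processed pseudogenes, which are genomic copies of spliced RNA, had lower medians. Among coding genes with at least 50 in liver, the median log2 difference was -0.77 for 3187 genes with no such copy. It was no lower for 359 genes with 1 copy (-0.74). With 2 to 4 copies it was -1.11, with 5 to 9 copies -2.40, and for 49 genes with 10 or more -3.33. Gene length moved with the difference as well, from a median of -0.71 in the shortest of 5 equal classes of exon length to 0.55 in the longest. The part of these features in single results was not tested. Of the list members below, Fabp5 and Fdps have 5 or more such copies, and no ribosomal gene is a member.

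**Figure D1:**
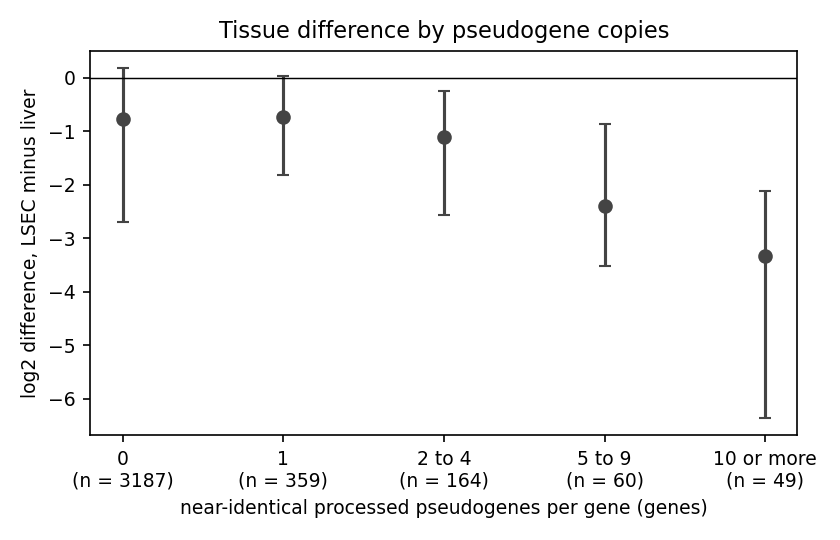
Log2 difference between LSEC and whole liver in NASH (y axis) for coding genes with a mean of at least 50 CPM in liver, by the number of near-identical processed pseudogenes (x axis, with the number of genes). Points are medians and bars run from the 25th to the 75th percentile. The median lay at -0.77 with no copy, at -0.74 with 1 copy and at -3.33 with 10 or more.

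Against this background the endothelial and hepatocyte genes separated the tissues widely. Of the 15766 genes, 10612 were called (67.3%), 5259 higher in LSEC (33.4%) and 5353 lower (34%). Past 4-fold, 2023 were called (12.8%), of which 670 were higher (4.25%) and 1353 lower (8.58%). The LSEC and liver values did not overlap for 11354 genes (72.0%), so a lack of overlap is common here and does not mark out a gene. The median log2 difference over all genes was 0.04. With scaling by total reads that median moved to 0.56 and the split became 8230 higher and 3361 lower, so the direction of small differences depends on the scaling. Of the genes named below as lower, Itgam, Vegfa and Unc5b were not called with that scaling, and Notch2 changed direction. Genes past 4-fold higher held 19.6 to 21.6% of the scaled reads of LSEC libraries, and genes past 4-fold lower held 48.8 to 52.9% of those of liver libraries. Whether fewer cells of a type or less RNA per cell gives a low value cannot be told apart in such bulk samples.

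**Figure D2:**
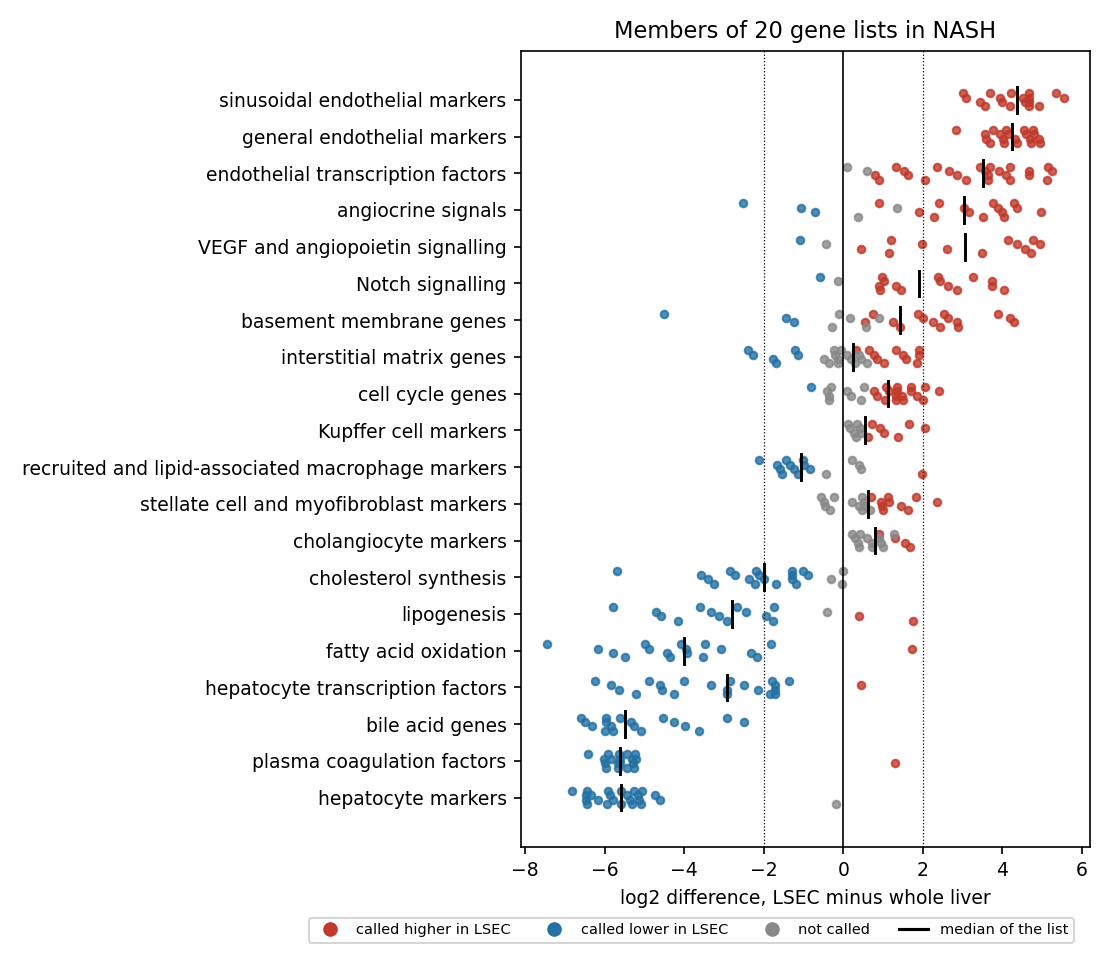
Log2 difference between LSEC and whole liver in NASH (x axis) for the members of 20 gene lists (y axis). Each point is a gene, red where called higher, blue where called lower and grey where not called; black bars are list medians, and dotted lines mark 4-fold. Endothelial lists have medians of 4.23 and 4.37 and the hepatocyte marker list one of -5.59.

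The promoters of genes at both ends of this range are shown here for their letters, as RefSeq gives them for build GRCm38.p6. Each line holds the 250 bases before the start of transcription, 5′ to 3′ on the gene's strand. Emcn encodes endomucin and Tie1 a receptor of the angiopoietin system, and both were higher in LSEC. Alb encodes albumin and Fga a chain of fibrinogen, and both were lower. Capitals mark GTTAAT, the half-site of HNF1 factors (regulators of hepatocyte genes), and AGGAAG, which holds the GGAA core of ETS factors (regulators of endothelial genes), each on either strand.
Emcn, chr3:137340828-137341077, plus strand: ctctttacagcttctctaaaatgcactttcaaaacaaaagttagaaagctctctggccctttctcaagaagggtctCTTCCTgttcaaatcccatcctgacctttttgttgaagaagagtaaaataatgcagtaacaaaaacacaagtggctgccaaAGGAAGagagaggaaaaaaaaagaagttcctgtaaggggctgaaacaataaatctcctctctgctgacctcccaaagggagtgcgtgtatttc
Tie1, chr4:118489850-118490099, minus strand: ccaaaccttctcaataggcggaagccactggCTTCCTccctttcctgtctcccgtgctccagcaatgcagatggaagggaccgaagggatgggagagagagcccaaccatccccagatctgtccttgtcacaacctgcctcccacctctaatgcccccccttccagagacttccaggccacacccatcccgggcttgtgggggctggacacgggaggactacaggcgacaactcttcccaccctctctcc
Alb, chr5:90460620-90460869, plus strand: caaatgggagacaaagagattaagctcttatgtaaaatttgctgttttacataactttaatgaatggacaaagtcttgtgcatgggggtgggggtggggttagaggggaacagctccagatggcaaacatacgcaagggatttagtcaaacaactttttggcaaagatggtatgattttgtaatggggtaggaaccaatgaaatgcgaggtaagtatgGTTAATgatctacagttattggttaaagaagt
Fga, chr3:83025903-83026152, plus strand: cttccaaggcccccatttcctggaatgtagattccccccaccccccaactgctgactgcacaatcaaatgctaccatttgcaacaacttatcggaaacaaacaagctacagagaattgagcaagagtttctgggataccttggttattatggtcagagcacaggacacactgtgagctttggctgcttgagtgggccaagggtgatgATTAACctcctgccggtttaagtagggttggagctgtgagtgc
In the Alb promoter the GTTAAT begins 32 bases before the start, and in Fga its reverse complement begins 43 bases before it. These starts are those of RefSeq. The gene coordinates given below are those of GENCODE M21, which puts the start of Alb further downstream. Of 19 hepatocyte marker genes with a promoter in the table, 8 held GTTAAT (42.1%), against 6.43% of all 32851 promoters of this length. None of 12 sinusoidal and none of 10 general endothelial marker genes held it. AGGAAG stood in 7 of the 12 sinusoidal genes (58.3%) and 6 of the 10 general ones (60.0%), against 29.5% of all promoters and 4 of the 19 hepatocyte genes (21.1%). These marker genes were counted once each, with a match in any promoter of the gene, whereas the 32851 promoters were counted singly. Counted per gene in the same way, 33.0% of the 11851 genes tested with a promoter held AGGAAG and 5.51% GTTAAT. Of 475 genes past 4-fold higher, 42.7% held AGGAAG and 6.11% GTTAAT. Of 1020 genes past 4-fold lower, 32.4% held AGGAAG, near the share of all genes tested, and 10.98% GTTAAT. The 2 motifs do not overlap in these lines, and of 838 list members 604 had a promoter in the table. A match is a description of letters and no binding site.

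All 18 markers of sinusoidal endothelium were higher in LSEC, and all 18 past 4-fold, with a median log2 difference of 4.37 beside 0.04 over all genes. Their summed level was 21705 to 23971 in LSEC libraries and 999 to 1104 in liver libraries. Stab2, a scavenger receptor for hyaluronan, had 1791, 1163 and 2159.7 in LSEC and 111, 102 and 106 in liver, a log2 difference of 3.95 ± 0.22 (SE, limma adjusted p = 1.83e-06, n = 3 libraries per tissue). It lies on chromosome 10 at 86841198 to 87008025 in mm10. Each LSEC library stood above each liver library by a wide margin. Gpr182, an orphan receptor of sinusoidal endothelium, had the largest difference of the list at 5.55 ± 0.13, with 1501, 1846 and 1519 in LSEC and 36.8, 34 and 31.5 in liver (adjusted p = 1.21e-07, limma). It lies on chromosome 10 at 127747276 to 127751732. F8, the gene of coagulation factor VIII, followed with 1489.6, 1213 and 1863 against 30.1, 46.7 and 33.6. The liver values of both genes were a few percent of the LSEC values and did not overlap them.

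Receptors and enzymes of the same list were close behind. Clec4g, a lectin, had 1663, 2019.6 and 1555 in LSEC and 66.7, 81.9 and 57 in liver. Lyve1, a hyaluronan receptor, had 670.04, 1174 and 916 against 48.3, 42.4 and 27.9, with library 2 the highest of the LSEC. Dnase1l3, a secreted DNA-degrading enzyme, had 2362, 2686 and 2498 against 77, 98 and 75.7. None of these groups overlapped. The smallest difference of the list was that of Cd209b, a lectin of low level here, with 4.08, 6.75 and 3.97 against 0.13, 0.113 and 0.247 (log2 difference 3.0). Over the 17 members with at least 10 CPM in a tissue, the liver level was a median of 4.3% of the LSEC level. It ranged from 2.1% for Gpr182 to 10.9% for Tfec.

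Of 20 general endothelial markers 20 were higher past 4-fold, with a median of 4.23. Cdh5, the cadherin of endothelial junctions, had 1555, 1498 and 1885 in LSEC and 67.6, 60.4 and 61.7 in liver. Pecam1, an adhesion protein of the same junctions, had 1082, 1203 and 1246 against 54.5, 44.9 and 46.7. The values of neither gene overlapped. Mcam, which encodes CD146, the protein used for the beads, had 469, 428 and 434 against 25.8, 17.6 and 22.7 (log2 difference 4.32 ± 0.15). Itgam, which encodes the CD11b used for depletion, had 7.95, 9.02 and 10.6 in LSEC and 15.9, 15.1 and 28.3 in liver and was called lower, by 1.01 on the log2 scale. Plvap, a protein of the diaphragms that close endothelial pores, had the smallest difference of the list at 2.83, with 979.99, 965 and 852 against 116, 136 and 139.

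**Figure D3:**
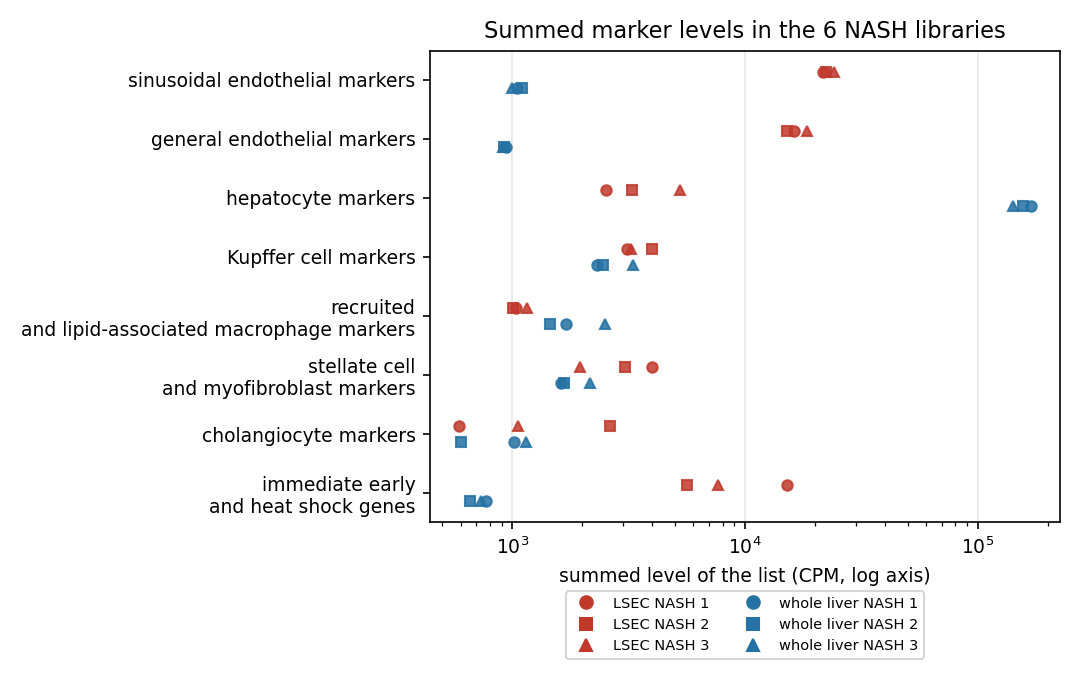
Summed level of 8 marker lists (y axis) in each of the 6 NASH libraries, in CPM on a log axis (x axis). Red symbols are LSEC and blue symbols whole liver; the symbol shape gives the library. Sinusoidal markers sum to 21705 to 23971 in LSEC and 999 to 1104 in liver, and hepatocyte markers to 2539 to 5249 and 141531 to 169089, while the groups overlap for Kupffer cell, stellate cell and cholangiocyte markers.

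Markers of larger vessels and continuous capillaries were high in the LSEC libraries as well: 17 of 17 were called higher and 14 past 4-fold, with a median of 3.98. Vwf, von Willebrand factor, had 413, 345 and 438 in LSEC and 28.9, 20.6 and 23 in liver. Thbd, thrombomodulin, had 289, 591 and 320.1 against 14.8, 12 and 12.5. Neither gene's groups overlapped. Sele, an adhesion protein induced by inflammatory stimuli, had 146, 26.4 and 50.8 against 0.809, 1.44 and 2.0, with LSEC library 1 well above the others. Of 5 lymphatic markers 4 were called higher, at log2 differences of 0.73 (Reln) to 1.89 (Foxc2), and none past 4-fold. Without liver library 1, Reln was not called (0.54). Only 2 of the 5, Reln and Prox1, reached a mean of 10 CPM in a tissue. The summed level of the 5 overlapped between tissues, at 211 to 303 in LSEC and 144 to 216 in liver. Prox1, a transcription factor shared by lymphatic endothelium and hepatocytes, was lower, with 9.17, 13 and 19.6 in LSEC and 33.7, 70.3 and 49.5 in liver.

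Among 26 endothelial transcription factors, 24 were called higher, 17 of them past 4-fold, and none lower. Erg, an ETS factor that maintains endothelial identity, had 320.4, 235 and 351 in LSEC and 9.99, 10.8 and 12.8 in liver (log2 difference 4.68 ± 0.17). Sox7, a partner of these factors in vessel development, had 269, 171 and 204 against 4.85, 5.38 and 6.57. Gata2, another vessel factor, had 76.1, 63.2 and 66.3 against 2.84, 2.46 and 1.51. These levels were far apart in every library. Gata4, which sets the sinusoidal rather than the continuous capillary program, had 396, 417 and 391 against 30.9, 39.1 and 30.2, on a difference of 3.58. Klf2 and Klf4, factors induced by blood flow, stood at 5.26 and 5.15, with library 1 the highest LSEC library for both. The hypoxia factor Epas1 differed less, at 1.53, with 873, 776 and 1046 against 345, 316 and 267.

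Signals that endothelium sends to its neighbours were mostly higher in LSEC: of 19 angiocrine genes 14 were called higher, 10 past 4-fold, and 3 lower, with a median of 3.05. Wnt2, a Wnt ligand, had 59.7, 95.1 and 57 in LSEC and 3.78, 5.44 and 2.72 in liver. Wnt9b, the ligand of central vein endothelium, had 25.3, 64 and 28.8 against 2.22, 1.25 and 0.90. Rspo3, which amplifies Wnt signals at the receptor, had 114, 152 and 102 against 11.8, 13.1 and 14.4. No liver library reached any LSEC library for these 3 genes, and library 2 was the highest of the LSEC each time. Hgf, hepatocyte growth factor, which stellate cells make too, had 109.8, 84.9 and 109 against 14.3, 24.4 and 23.8 (log2 difference 2.28). Angpt2, a ligand of the receptor Tek, stood at 4.36 and Inhbb, an activin subunit, at 3.9. Igf1, a hepatocyte product, went the other way, with 89.7, 109 and 104 in LSEC and 579, 718 and 464 in liver, 17.2% of the liver level.

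In the list of Wnt signals, receptors and pericentral targets, 6 of 20 members were called higher in LSEC and 13 lower, 9 of the latter past 4-fold, with a median of -2.35. Lgr5, a receptor for R-spondins in pericentral hepatocytes, had 0.13, 0.0839 and 0.597 in LSEC and 5.45, 6.71 and 8.28 in liver. Tbx3, a target gene, had 0.999, 0.713 and 1.54 against 17.4, 35.9 and 42.5. Liver values were above every LSEC value for both. Rnf43, which removes Wnt receptors from the cell surface, was lower at -2.64. Cyp2e1, a pericentral cytochrome P450, had 38.6, 93.9 and 209.8 against 13688, 11673 and 10528, 0.954% of the liver level. Glul, glutamine synthetase, kept a higher share, 24.4%, with 440.02, 652 and 586 against 2269, 2418 and 2179.9. The Wnt receptor genes Fzd4 (1.6) and Fzd6 (2.47) and the co-receptor gene Lrp5 (1.39) were called higher in LSEC.

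**Figure D4:**
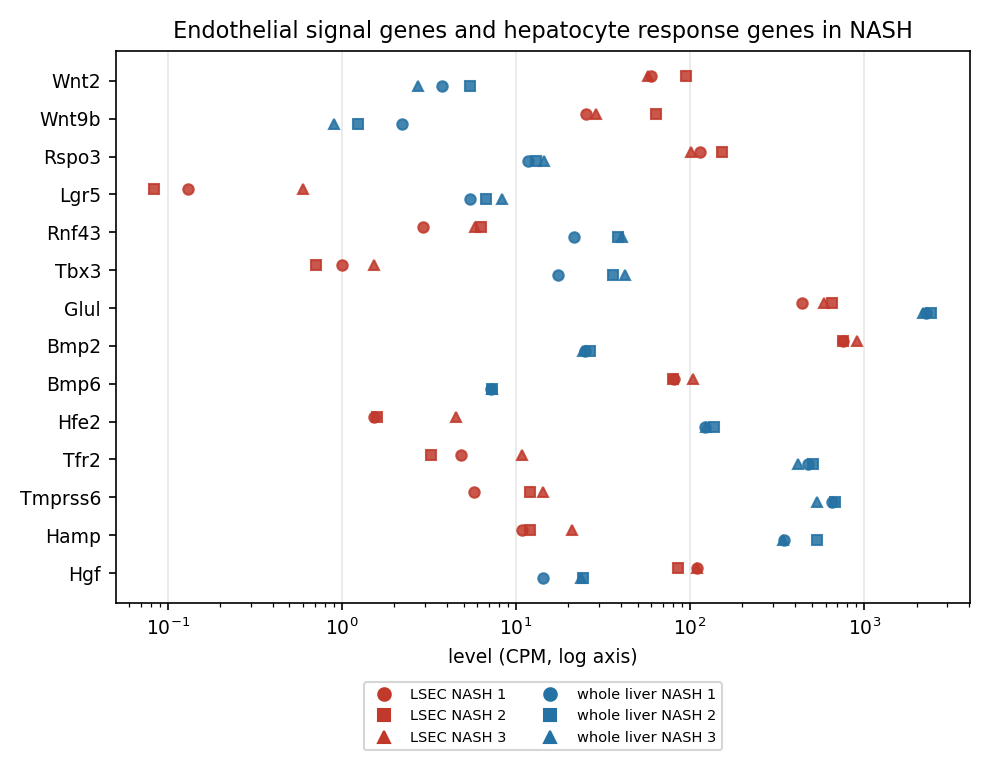
Level of 14 genes (y axis) in the 6 NASH libraries, in CPM on a log axis (x axis), with LSEC in red and whole liver in blue. The signal genes Wnt2, Wnt9b, Rspo3, Bmp2, Bmp6 and Hgf lie higher in LSEC. The receptor and response genes Lgr5, Rnf43, Tbx3, Glul, Hfe2, Tfr2, Tmprss6 and Hamp lie higher in liver. None of the 14 overlaps between tissues, and neither do 72.0% of all genes.

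In the BMP and hepcidin axis, which controls iron uptake, 11 of 18 genes were called higher in LSEC and 5 lower, 5 and 4 of them past 4-fold. Bmp2 and Bmp6 are made by LSEC and induce hepcidin, the iron hormone encoded by Hamp, in hepatocytes. Bmp2 had 752, 754 and 914 in LSEC and 24.9, 26.7 and 24.2 in liver, a log2 difference of 4.96 ± 0.12 (limma adjusted p = 1.21e-07). It lies on chromosome 2 at 133552159 to 133562885. Bmp6 had 80.9, 80 and 104 against 7.22, 7.28 and 7.24. The liver values of Bmp2 were 3.13% of the LSEC values on average and those of Bmp6 8.21%. On the hepatocyte side, Hamp had 10.8, 12.1 and 21 in LSEC and 348, 536 and 342 in liver. The co-receptor gene Hfe2 (hemojuvelin) had 1.52, 1.59 and 4.52 against 122, 138 and 124. Tfr2, a sensor of iron-laden transferrin, had 4.82, 3.27 and 10.8 against 478, 510.2 and 415. The LSEC values of all 3 genes were highest in library 3 and far below liver. Tmprss6, a protease that limits this signal, stood at -5.88. Hamp was at 3.58% of the liver level in LSEC, Tfr2 at 1.35%. The receptor genes Bmpr2 (2.96), Acvr1 (1.96) and Acvrl1 (1.72) were higher in LSEC. The inhibitory Smad genes Smad6 (2.69) and Smad7 (2.5), which BMP signals induce, were higher past 4-fold.

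Of 14 genes of the VEGF and angiopoietin systems 12 were called higher, 8 past 4-fold. The receptor genes Kdr (4.72), Flt1 (4.96), Flt4 (4.58), Tek (4.77) and Tie1 (4.15) were all past 4-fold. Kdr, the main receptor of VEGF-A, had 1767, 1225 and 2174 in LSEC and 53, 69.9 and 67.9 in liver. Vegfa, its ligand, was lower, with 71.2, 50.3 and 37.7 against 108, 102 and 120.5. Vegfc, a ligand of Flt4, was higher, with 34.4, 36.6 and 48.5 against 9.86, 8.7 and 10.4. In the Notch system 14 of 16 genes were called higher and 6 past 4-fold. Notch4 (3.73) and its ligand gene Dll4 (4.04) were among the latter, as was Notch1, with 425, 306 and 477 in LSEC and 39.6, 42.5 and 39.5 in liver. Notch2 was called lower, by 0.59, but stood at 0.10 with scaling by total reads. The target gene Hes1 stood at 2.38 and Nrarp, a feedback regulator, at 3.75.

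Guidance genes were higher in 14 of 19, 9 of them past 4-fold, with 1 lower. Sema6a, a semaphorin gene, led the list at 5.23 ± 0.11. Plxnd1, a semaphorin receptor, had 1218, 915 and 1249 in LSEC and 67.4, 64.7 and 75.3 in liver. Unc5b, a netrin receptor, was the member that was lower (-1.16). Of 15 endothelial G protein-coupled receptor genes 12 were higher, 6 past 4-fold. Adgrf5, an adhesion-type receptor, had 1830.1, 1750.0 and 2215 against 60.4, 59.1 and 49.7. Calcrl, a receptor for adrenomedullin, had 678, 590.4 and 643 against 25.7, 33.8 and 36. Neither gene's groups overlapped. S1pr1, a receptor for sphingosine-1-phosphate, was higher at 2.5. Among 18 genes of vascular tone 14 were higher and 2 lower. Nos3, endothelial nitric oxide synthase, had 148, 158 and 141 against 8.87, 7.17 and 8.62. Edn1, the constrictor endothelin, had 52.8, 63.3 and 51.6 against 3.52, 2.15 and 3.22. Its receptor gene Ednrb had 193, 341 and 293 against 20.1, 28.1 and 28.9. The LSEC values of all 3 genes were well above liver. Agt, angiotensinogen, a hepatocyte product, was lower (-4.78).

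Of 21 scavenger and uptake receptors 13 were called higher, 8 past 4-fold, and 6 lower, 4 past 4-fold. Mrc1, the mannose receptor, had 1985, 1778 and 2293 in LSEC and 93.9, 110.1 and 121 in liver. Fcgr2b, a receptor for immune complexes, had 2160.2, 2049 and 2107 against 79.9, 89.2 and 77.1. LSEC and liver were far apart for both. Msr1, a scavenger receptor better known from macrophages, stood at 2.92 and Cd36, a fatty acid and lipoprotein receptor, at 1.51. Asgr1, part of the hepatocyte receptor for asialoglycoproteins, was at the other end (-6.52), with 4.82, 5.58 and 11.6 against 719, 700.4 and 593. Lrp1, a receptor for lipoprotein particles, was lower too (-2.03). Among genes of caveolae and junctions, 16 of 25 were higher and 8 lower. Jam2 (5.14), Gja1 (4.79) and Tjp1 (2.99) were higher past 4-fold, and the hepatocyte connexins Gjb1 (-4.83) and Gjb2 (-5.16) lower.

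Adhesion molecules were higher in 12 of 14, with none lower. Vcam1 had 996, 622 and 623 in LSEC and 139.8, 97.1 and 131 in liver. Icam1 had 389, 217 and 205 against 50.5, 52.7 and 64.4. Both proteins bind leukocytes, and both genes were highest in LSEC library 1, with no overlap between tissues. Lipid handling was split, with 6 of 15 higher and 6 lower. Gpihbp1, which holds lipoprotein lipase on capillaries, had 785, 779.9 and 549 against 44.7, 35.9 and 38. Fabp4, a fatty acid carrier, had 934, 885 and 616 against 88.5, 57.6 and 71.8. The lipase gene Lpl itself was not called, with 258, 199 and 323 against 268, 284 and 492, overlapping ranges, while the groups of Gpihbp1 and Fabp4 did not overlap. Angptl4, an inhibitor of that lipase, was lower (-3.42). Of 11 coagulation genes of endothelium 8 were higher, and Tfpi, the inhibitor of tissue factor, had 374, 293 and 347 against 18.3, 18 and 20.8.

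Basement membrane genes were higher in LSEC in 15 of 23, 7 past 4-fold, and lower in 3, with a median of 1.43. Col4a1, a chain of type IV collagen, had 1446, 1180.2 and 1466 in LSEC and 238, 189 and 227 in liver (log2 difference 2.64 ± 0.16). Lama4, the laminin chain of vessel walls, had 273, 205 and 333 against 13.4, 13.2 and 15.4. Hspg2, perlecan, had 1164, 875 and 1394 against 75.7, 63.8 and 87.7. No liver library came near the LSEC range for these genes. Col18a1, whose product yields endostatin and which hepatocytes make, was lower (-4.51), with 28.9, 51.4 and 76.3 against 1145, 1199 and 1017. Interstitial matrix genes had a median of 0.24, with 11 of 30 higher, 6 lower and none past 4-fold. Col1a1, a chain of type I collagen, had 412, 189 and 295 against 296, 279 and 363, overlapping ranges, and was not called. Without liver library 1 the count of higher members fell to 6. Bgn, a small proteoglycan, was higher (1.49), and Fn1, fibronectin, lower (-2.39), with 402, 324 and 409 against 1825, 2361 and 1789.7. Of the 22 stellate cell markers, given below, 10 were higher in LSEC and none lower, with summed levels of 1946 to 3964 CPM in LSEC against 1626 to 2148 in liver; their part in the collagen values was not tested.

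Of 19 genes of metalloproteinases and their inhibitors 8 were higher in LSEC and 5 lower. Timp3, an inhibitor, had 1522, 1755 and 1797 in LSEC and 210.1, 118 and 184 in liver. Adamts1, a protease, had 977, 292 and 457 against 18.4, 24.7 and 25.2, highest in LSEC library 1. Neither gene's groups overlapped. Mmp12, a macrophage enzyme, was not called (0.39). Among 19 integrin subunits 12 were higher and 2 lower: Itga9 (3.22), Itgb3 (3.07) and Itga1 (3.0) led, and Itga7 (-3.31) and Itgb5 (-1.44) were lower.

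On the hepatocyte side, 23 of 24 markers were called lower in LSEC, all 23 past 4-fold, with a median of -5.59. Alb had 1249, 1566 and 2489 in LSEC and 59705, 56742 and 54897 in liver (log2 difference -5.07 ± 0.49, limma adjusted p = 3.7e-05) and lies on chromosome 5 at 90460897 to 90476602. Apoa2, a protein of high-density lipoprotein, had 59.1, 77.9 and 140.1 against 9056, 7256 and 6616. Cps1, the first enzyme of the urea cycle, had 39.2, 32.7 and 98.4 against 2231, 2556 and 1072. All of these were highest in LSEC library 3, and none reached a liver value. The summed level was 2539 to 5249 in LSEC and 141531 to 169089 in liver. Over the 23 markers with at least 10 CPM in a tissue, the LSEC level was a median of 2.06% of the liver level, from 0.914% for Serpina1a to 4.34% for Ambp. The remaining marker, Ass1, was under 0.3 in every library of both tissues and was not called. Ass1 has 1 near-identical processed pseudogene. Whether the counting of reads lowered its values was not tested, so they are uncertain.

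Of 19 plasma coagulation genes 18 were lower, all past 4-fold, at a median of 2.15% of the liver level. F2, prothrombin, had 21.8, 26.2 and 54.2 in LSEC and 2006, 1989 and 1744 in liver. Pros1, protein S, was the member that was higher, with 381, 465 and 453 against 170.2, 188 and 168 (log2 difference 1.3 ± 0.13). Of 18 complement genes 17 were lower and Masp1, a protease of the lectin pathway, higher (1.22), with 236, 122 and 202 against 57.2, 101 and 79.2. C3 had 296, 752 and 739 against 8403, 9492 and 7432. Bile acid genes were lower in 18 of 18, 17 past 4-fold, and cytochromes P450 in 17 of 19. Cyp7a1, the rate-limiting enzyme of bile acid synthesis, had 3.61, 3.06 and 8.4 against 204, 362 and 432. Cyp1b1, a P450 found outside hepatocytes, was higher (1.07), with 22.9, 39.1 and 25.3 against 13.4, 10.9 and 15.9.

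Of 22 hepatocyte transcription factors 21 were called lower, 13 past 4-fold, and 1 higher. The LSEC level of those with at least 10 CPM in a tissue was a median of 13% of the liver level. Hnf4a, the master regulator, had 11.6, 21.7 and 30.4 in LSEC and 723, 623 and 482 in liver, 3.49% of the liver level, and Nr1i3, a sensor of foreign compounds, was at 0.948%. Cebpa, a factor of metabolic genes, stood at 13.2%, with 68.8, 73.9 and 80.04 against 563, 593 and 530.2. Rxra, a partner of many nuclear receptors, stood at 28.9%, with 183, 179 and 217 against 696, 726 and 574. The shares of Cebpa and Rxra lie above the 4.34% of the highest hepatocyte marker. Nr5a2 was the gene that was higher, by a small amount (0.44 ± 0.14), with 66.5, 56.7 and 76.2 against 45.8, 55.4 and 45.1. That call was lost without LSEC library 1 or 3 (0.43 and 0.33) and without liver library 1 or 3 (0.37 and 0.34).

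Most genes of lipid metabolism were lower in LSEC. Fatty acid oxidation genes were lower in 17 of 18, with a median of -4.01 and LSEC levels at a median of 6.11% of liver. Cpt1a, which carries fatty acids into mitochondria, had 112, 134 and 176 in LSEC and 1129, 1240.0 and 1112 in liver. Hadha, an enzyme of the oxidation cycle, had 175, 173 and 195 against 629.7, 672 and 602. Cpt1a was thus at 12.1% of liver and Hadha at 28.5%. Pdk4, which slows glucose oxidation, was higher in LSEC (1.72), with 109.5, 87.4 and 107 against 37.2, 31.1 and 24.1. Cholesterol synthesis genes were lower in 18 of 21, with a median of -2.0. The 17 with at least 10 CPM in a tissue were at a median of 22.5% of liver. Lipogenesis genes were lower in 13 of 16, with 2 higher. Of the stearoyl desaturase genes, Scd1 was lower, with 502, 576 and 1327 against 14505, 24179 and 14755. Scd2 was higher, with 184, 161 and 240.4 against 49, 51.5 and 70.6. Lipoprotein genes were lower in 15 of 16. Apoe, which macrophages make as well, was at 14.8% of the liver level, with 4676, 4729.9 and 4959.5 against 36443, 31189 and 29665.

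Factors that the liver secretes into blood were lower in 16 of 20 and higher in none. Tsku, the gene of tsukushi named in the series title, had 18.3, 18.2 and 23.6 in LSEC and 305, 227 and 208 in liver, a log2 difference of -3.58 ± 0.17 (limma adjusted p = 9.25e-07), and lies on chromosome 7 at 98350668 to 98361328. Its LSEC level was 8.12% of the liver level, above the range of the hepatocyte markers. The median share of the hepatocyte transcription factors with at least 10 CPM in a tissue was higher, at 13%. The LSEC and liver values of Tsku were well apart. Fgf21, a hormone of metabolic stress, had 0.13, 0.126 and 0.64 against 18, 9.35 and 17.8, with LSEC library 3 the highest of the LSEC. Igfbp2, which binds insulin-like growth factors, was lower past 4-fold (-6.77) and Igfbp4 by less (-1.21). Sepp1, selenoprotein P, took the most reads of any gene in all 3 LSEC libraries and was also high in liver, with 13798, 12833 and 12789.5 against 13213, 14065 and 11687; it was not called (0.02 ± 0.52). In liver Alb took the most reads, 4.27 to 4.6% of each library.

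Markers of other liver cell types were measured in both tissues. Kupffer cell markers, those of the resident macrophages, summed to 3115 to 3998 in LSEC and 2307 to 3286 in liver, ranges that overlap, and 7 of 14 were called higher with a median of 0.54. Vsig4, a complement receptor of these cells, had 131, 205 and 171 against 78.8, 53.8 and 127 and was called higher (1.02), but not without LSEC library 2 (0.87). Without LSEC library 2, or without liver library 2, the count fell to 3, and with scaling by total reads it was 14. Markers of recruited and lipid-associated macrophages were mostly lower, 11 of 16 with 1 higher and a median of -1.07, but with scaling by total reads 4 were lower and 4 higher. Trem2, a lipid receptor of these cells, had 18.4, 10.8 and 20.4 in LSEC and 46.1, 37.6 and 80.3 in liver. The values did not overlap, and liver library 3 was the highest of its group. Ccl2, the chemokine that draws monocytes, was the member that was higher (1.97). Neutrophil markers were lower in 6 of 10; S100a8, an alarmin, had 0.261, 0.126 and 0.81 against 4.96, 4.39 and 6.57.

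Of 22 stellate cell markers 10 were called higher and none lower, with a median of 0.61 and sums of 1946 to 3964 in LSEC and 1626 to 2148 in liver; with scaling by total reads 17 were higher. Lrat, which stores retinol as ester, had 169, 111 and 92.6 against 34.8, 58.4 and 77. Colec10, a secreted lectin, had 185, 159 and 88.9 against 14.1, 40.6 and 32.9. Dcn, decorin, was not called, with 1532, 1079 and 659.7 against 717, 718 and 937, though without LSEC library 3 it was called higher (0.71). LSEC library 1 was the highest for Lrat, Colec10 and Dcn, and library 3 the lowest. Cholangiocyte markers summed to 589 to 2628 in LSEC and 601 to 1148 in liver, with 4 of 16 called higher. Epcam, an epithelial adhesion protein, had 14.7, 76 and 33.3 against 23.9, 9.18 and 24.5 and was not called; without LSEC library 1 it was called higher (1.49). LSEC library 2 held its highest value. Without LSEC library 1 the count of higher members was 12, without liver library 2 it was 0, without LSEC libraries 2 and 3 in turn 2 and 1, and without liver library 1 it was 1, so this list gives no stable call. Of 20 T and NK cell markers 4 were higher and 1 lower, and of 12 B and plasma cell markers 2 and 2; most lay under 10 CPM. With scaling by total reads 9 T and NK cell markers were higher, and leaving out single libraries moved the count of higher B and plasma cell markers to between 1 (LSEC library 1 or 3, or liver library 1 or 2) and 5 (LSEC library 2).

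Genes of inflammation that endothelium shares with leukocytes went in both directions. Chemokines and their receptors were higher in 13 of 29 and lower in 7. Cxcl10, which draws T cells, had 933, 198 and 222 in LSEC and 13.6, 21.5 and 15.9 in liver. Cxcl9, which acts on the same receptor, had 673, 325 and 322 against 56.5, 97.9 and 50.9. Library 1 was the highest of the LSEC for both, and the groups did not overlap. Cxcl16 was higher (1.93) and Ccl9 lower (-1.77). Interferon-stimulated genes were higher in 12 of 21 and lower in 2, with a median of 1.17. Ifi44 had 138, 164 and 116 against 19.1, 22.5 and 25.6. Oasl2, of the oligoadenylate synthetase family, had 181, 184 and 157 against 32.3, 34.4 and 48. H2-Eb1, a chain of MHC class II, which presents peptides to helper T cells, had 212, 175 and 212 against 479.5, 453 and 631 (-1.37). Of the 16 class II and dendritic cell genes, 6 were lower and 4 higher; scaling by total reads left 1 lower beside 5 higher, and leaving out LSEC library 1 or 2 left 3 lower. Clec9a (2.68) and Zbtb46 (2.8), named for dendritic cells, were among the higher ones. Of 13 MHC class I genes 3 were higher and 5 lower, with a median of -0.02; scaled by total reads, this list had 7 higher and 1 lower. Of 18 Toll-like receptor and NOD genes 8 were higher and 2 lower, and with scaling by total reads 13 were higher. Tlr3 (2.43) and Tlr4 (2.29) were higher and Tlr5, the flagellin receptor, lower (-3.32). Lysosomal genes were evenly split at 7 and 7 of 29, with a median of -0.15; Lgmn (1.22), an endopeptidase, was higher and Ctsz (-1.97), a cathepsin, lower. With scaling by total reads 21 lysosomal genes were higher.

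Of 25 immediate early and heat shock genes 24 were called higher, 11 past 4-fold, with a median of 2.92. These genes are switched on within minutes by growth factors, stress or tissue handling. Fos had 1891, 494 and 869 in LSEC and 6.16, 5.86 and 7.81 in liver (log2 difference 7.05 ± 0.42). Fosb had 659.96, 147 and 248 against 1.93, 1.22 and 1.17 (7.24 ± 0.48), and these were the 2 largest differences toward LSEC among abundant genes. Hspa1a, a heat shock protein gene, had 153, 70.1 and 56.2 against 1.67, 1.19 and 1.71. LSEC library 1 was the highest for all 3 by more than 2-fold over library 2, and its summed level was 15196 against 5631 and 7682 in libraries 2 and 3. Without library 1, 24 members were higher. LSEC were isolated from tissue and whole liver was not; isolation and tissue cannot be told apart. The other genes with the largest differences toward LSEC, by the naming rule, were Apold1 (5.74), an endothelial immediate early gene, and Cyyr1 (5.46), Akap12 (5.41), Il1a (5.34), the gene of interleukin-1 alpha, and Rasd1 (5.25). Library 1 was the highest of the LSEC for Apold1, Akap12, Il1a and Rasd1.

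Toward liver, 8 of the 12 largest differences belonged to ribosomal protein genes. The others included Bhmt, an enzyme of methionine metabolism (-8.05), with 5.21, 4.24 and 10.6 in LSEC and 1566, 2476 and 1439 in liver, Cyp2d9 (-7.59) and Mup14 (-7.79). Mup14 belongs to the major urinary protein family, whose near-identical members may share reads, so its value is uncertain. Cell cycle genes were higher in LSEC in 17 of 26 and lower in 1, with none past 4-fold. Mki67, a marker of dividing cells, had 48.5, 40.8 and 62.4 against 5.92, 9.18 and 13.2 (2.41 ± 0.28). Ccna2, cyclin A2, had 14.7, 20.2 and 17.1 against 2.58, 4.39 and 5.13. No liver library reached the LSEC range for either gene. Mcm3, part of the replication helicase, had 70.03, 74.6 and 71 against 14.3, 20.9 and 24.5. Which cells of the fraction divide was not tested.

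The tissue difference in NASH was then set against that on chow in 1 fit of all 12 libraries, on a scale common to the 12. Called genes numbered 3164 (20.1%), 1081 with a higher difference in NASH (6.86%) and 2083 with a lower one (13.2%). A lower value means that LSEC stood less far above liver, or further below it, in NASH. Sinusoidal markers stood far above liver on both diets. Their median was 4.37 in NASH and 4.57 on chow, with 5 of 18 members called lower and none higher. The summed level of these markers was 19592 to 21638 in NASH LSEC and 36365 to 38195 in chow LSEC, beside 902 to 996 in NASH liver and 1295 to 1402 in chow liver. Both tissues had the lower sums in NASH, without overlap between diets. Of 26 endothelial transcription factors 8 were called lower. Elk3, an ETS factor, went from 5.19 on chow to 4.19 in NASH. None of the 26 was called higher.

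For genes of fatty acid oxidation and cholesterol synthesis the gap was smaller in NASH. Fatty acid oxidation genes were called higher in 15 of 18, with medians of -4.79 on chow and -4.01 in NASH. Cholesterol synthesis genes were called higher in 15 of 21, with medians of -3.46 and -1.97. Lipogenesis genes were split, with 6 of 16 called higher and 4 lower, and their sum was 561 to 660.3 CPM in LSEC beside 7662 to 8708 in liver on chow, and 1023 to 1953 beside 15733 to 24750 in NASH. Bile acid genes were called higher in 6 of 18 and cytochromes P450 in 4 of 19, with none lower in either list. Sqle, squalene epoxidase, went from -3.36 on chow to -0.01 in NASH, with 89.7, 100.1 and 128 in chow liver and 6.64, 6.32 and 11.9 in NASH liver, beside 7.81, 9.5 and 12.4 and 5.84, 9.92 and 8.51 in LSEC. Liver values were lower in NASH without overlap between diets, and LSEC values overlapped. Ehhadh, a peroxisomal enzyme, went from -8.47 to -5.47. Hepatocyte markers were called in 1 of 24, though their median went from -8.5 to -5.58: their sum in chow LSEC ran from 455 to 4956, a spread of more than 10-fold between libraries, against 2292 to 4738 in NASH LSEC. In liver this sum was lower in NASH without overlap, at 127755 to 152631 against 240784 to 263344 on chow. The part of these hepatocyte transcripts in the other gene lists was not tested.

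**Figure D5:**
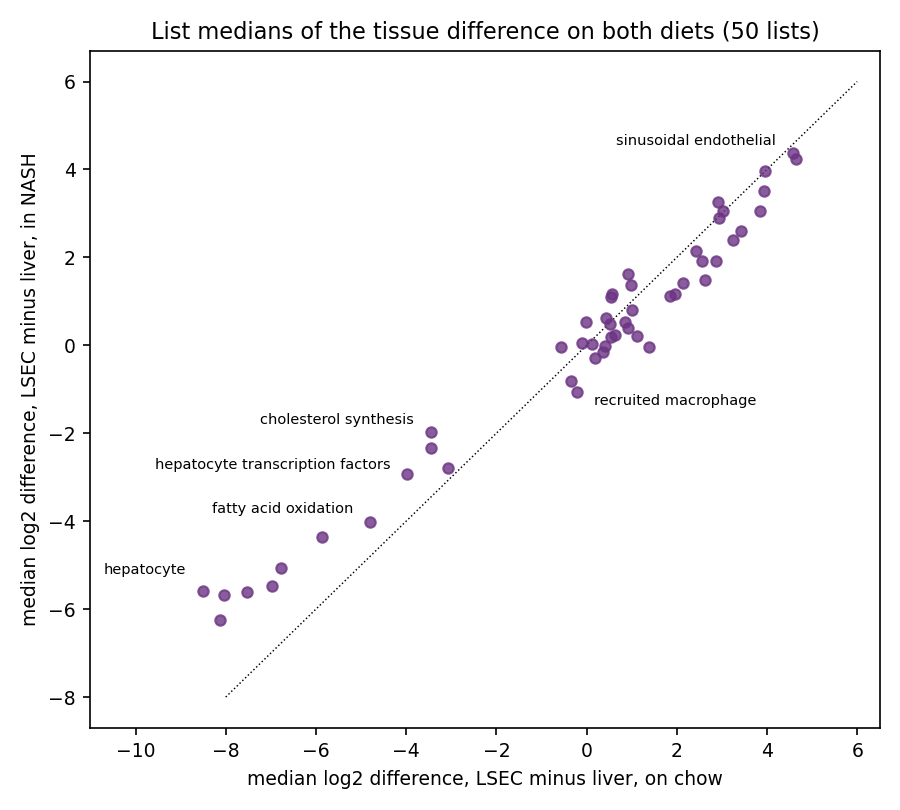
Median log2 difference between LSEC and whole liver for each of 50 gene lists on chow (x axis) and in NASH (y axis), both from the 12-library fit; the dotted line marks equal values. Sinusoidal endothelial markers lie at 4.57 and 4.37, and cholesterol synthesis genes at -3.46 and -1.97, above the line.

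Genes with the smallest p-values in this comparison included 2 with large shifts in liver. Cyp4a14, a P450 that oxidizes fatty acids, went from -12.51 on chow to -6.26 in NASH, with 10802, 10055 and 9491 in chow liver and 481, 365 and 293 in NASH liver. Its LSEC values were 0.96, 2.8 and 0.571 on chow and 2.78, 3.98 and 7.31 in NASH. Lgals1, the gene of galectin-1, a sugar-binding protein of stroma and macrophages, went from 3.96 to -0.22, with 12.7, 16.1 and 13.1 in chow liver and 152, 139.9 and 142 in NASH liver. Its LSEC values were 169.6, 262 and 247 on chow and 136, 135 and 103 in NASH. Liver values did not overlap between diets for either gene.

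Of 30 interstitial matrix genes 10 were called lower and 1 higher, and of 23 basement membrane genes 9 lower and 2 higher. Bgn went from 3.18 on chow to 1.49 in NASH, with 228, 234 and 241 in chow liver and 619, 532 and 686 in NASH liver. Its LSEC values were 1933, 2109 and 2339 on chow and 1779.6, 1776 and 1589 in NASH. The difference of Fn1 was higher in NASH, from -5.0 to -2.39. Lysosomal genes were called lower in 13 of 29 and MHC class I genes in 8 of 13; Ctsk, a cathepsin, went from 3.07 to 0.54. Igf1 went from -4.99 to -2.51, and the Notch target Hes1 from 4.09 to 2.38. The tissue difference of Tsku was not called between diets, at -4.18 on chow and -3.58 in NASH. The direction of the call depended on scaling: with median-ratio size factors 1587 genes were higher and 1477 lower, and with DESeq2 1866 and 1809. Without liver NASH library 3 the count was 2101, with 1170 higher and 931 lower.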

How the data were processed

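Gene-level values of the 6 NASH and 6 chow libraries were used. Per the submitters' processing notes the tools were FastQC, STAR, HTSeq, DESeq2 and Seurat and the build mm10, with roles and versions not given in the sources used here. Each table, 1 per tissue, holds a normalized signal per gene as the authors deposited it. Log2 fold changes between the diets and their p-values, which the authors deposited beside these values, were not used. In each column, every value was a whole multiple of the smallest value above 0 (100% within 0.01), so reads were recovered by division. That puts the 6 libraries, normalized separately by the authors, on 1 common scale.

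The 15766 symbols in both tables were kept; 485 and 915 symbols stood in the LSEC or the liver table only and 18 date-like names were dropped. The LSEC-only symbols, whose reads were mainly those of mitochondrial genes, held 3.47 to 3.88% of the reads of NASH LSEC libraries. LSEC columns carry no replicate number, and their library numbers are names only. Reads were scaled with TMM (edgeR 4.0.16) and log2 values with a pseudocount of 0.5 were fitted with limma 3.58.1 (R 4.3.3) with an intensity trend, as was planned for values that are not counts; the p-values were adjusted over all genes (Benjamini-Hochberg, threshold 0.05, two-sided), and the test against 4-fold used limma's treat. The diet comparison was 1 contrast in a fit of 12 libraries. The fits were run on simulated data in which few genes were changed. For the tissue comparison these data held no other tissue difference. They therefore cannot show how the scaling performs with differences as wide as those found here. Replicates differed beyond counting noise in every pair, so each library counted as 1 sample.

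Alternatives were other scalings, a filter at 1 CPM in 3 libraries, pseudocounts of 0.1 and 2, edgeR and DESeq2 1.42.0 on recovered reads, Holm adjustment, and each library left out. Pseudogene copies were found with minimap2 2.31 in the GENCODE M21 annotation (mm10), in which 96.1% of symbols matched 1 gene; promoters came from RefSeq. Named genes were, per direction, the 12 largest differences among genes that were called and averaged 50 CPM or more in the higher tissue, any list member, the 8 per direction with the smallest p between diets, and the 5 with most reads per library; Rps29, Gapdh and the other housekeeping genes outside these were named after their values were seen. Some genes that meet this rule are not reported here. Members and gene lists were chosen with earlier results of these data known.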

Additional observations from a re-analysis of the deposited data

Results flagged for a closer look

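The tissue difference of the following genes differed between diets by the contrast of the 12-library fit (limma, adjusted p under 0.05 over all genes). Values are log2 differences, LSEC minus liver.

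Of the 8 genes with the smallest p-values toward a lower difference in NASH, Lgals1 went from 3.96 on chow to -0.22 in NASH (-4.18). Sdcbp2, an adaptor protein gene, went from 1.34 to -3.33 (-4.66), Htra1, a secreted protease, from 3.37 to -0.51 (-3.88), and Mapt, a microtubule-binding protein, from 2.55 to -0.49 (-3.04). Uap1l1 went from 1.36 to -1.51 (-2.87), and Ccdc80, an extracellular matrix protein, from 4.22 to 1.93 (-2.29). Ces2g, a carboxylesterase, went from 2.89 to 0.94 (-1.95), and Golm1, a Golgi membrane protein, from 3.11 to 1.22 (-1.89).

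Of the 8 toward a higher difference in NASH, Cyp4a14 moved by 6.25 and Acot1, an acyl-CoA thioesterase, by 4.81, from -8.33 to -3.52. Ccrn4l, a gene of the daily rhythm, moved by 4.23, from -4.37 to -0.13. Steap2, a metalloreductase, moved by 3.37 and changed sides, from -2.32 to 1.05. Slc16a10, an amino acid transporter, moved by 3.26, Bmp1, a protease that matures collagens, by 2.41, Hsd17b7, a cholesterol synthesis enzyme, by 2.19, and Retsat, a retinol saturase, by 2.18. Each stayed lower in LSEC on both diets except Steap2 and Ccrn4l, which was near 0 in NASH.

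Among the list members given above, the change was -1.69 for Bgn, -2.54 for Ctsk, -1.0 for Elk3 and -1.72 for Hes1. It was 2.99 for Ehhadh, 2.61 for Fn1, 2.48 for Igf1 and 3.36 for Sqle.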

How the results depend on the processing

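Called genes numbered 10077 to 11591 under the other scalings, the filter, the pseudocounts, edgeR and DESeq2, beside 10612; genes past 4-fold 1696 to 2583, beside 2023; and genes whose difference changed between diets 3020 to 3675, beside 3164. Holm adjustment left 3070, 700 and 131. Leaving out each library in turn gave 9679 to 10639, 1790 to 2074 and 2101 to 3554 genes, the lowest diet count without liver NASH library 3; the cause was not tested. With scaling by total reads 8230 genes were higher and 3361 lower in LSEC (1184 and 953 past 4-fold), and for the diets 656 and 2895; with median-ratio factors the diets gave 1587 and 1477. Restricting the fit to 12962 coding genes with no near-identical processed pseudogene, an alternative chosen after seeing the data, called 8726, 1773 and 2739 genes.

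Of 800 counts of list members called between tissues in NASH under these alternatives, 739 stayed within 1.5 times the count reported. For 23 of 50 lists this held under all. The counts of list members called between diets were not recomputed under the alternatives. Of 2997 values of the 188 genes named, 2917 kept direction and side of the threshold, 59 lost a call, 7 gained one and 14 changed sign; of 549 values of 25 genes for the diets, 6 lost a call and none changed sign. The sign changes were of small differences. With scaling by total reads Col1a1 went to 0.58, Lgals1 to 0.48, Lpl to 0.31, Notch2 to 0.10 and Sqle to 0.66. Sqle went to 0.10 with upper-quartile factors and 0.0186 with the filter, and Sepp1 to -0.0011 with median-ratio factors and -0.0070 with DESeq2. Leaving out each library in turn, Col1a1 ranged from -0.40 to 0.16, Sepp1 from -0.11 to 0.054 and Sqle from -0.19 to 0.22. No paired analysis was possible because the labels do not link libraries to single animals, and the LSEC columns carry no replicate numbers.

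LSEC libraries hold fewer reads than liver libraries, so low genes are less precise there. With 3 libraries per tissue, isolation, preparation and counting cannot be told apart from tissue. Highly expressed genes such as Alb, Apoe and Sepp1 have wide standard errors in the trended fit.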

Other observations

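Genes of blood cells were measured as well. Alas2, the first enzyme of haem synthesis in red cells, had 1.52, 1.8 and 2.69 in LSEC and 109, 135 and 91.1 in liver and was lower past 4-fold (-5.49). Klf1, a transcription factor of red cells, had 0.13, 0.0839 and 0.0853 against 3.73, 4.42 and 3.87 and was lower past 4-fold too (-2.91). Of the 5 platelet genes of the same list, Itga2b was called higher (0.79), with 8.51, 8.35 and 9.17 against 4.77, 4.48 and 5.17.

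Of 11 mesothelial and portal fibroblast markers 4 were higher in LSEC and 2 lower; without LSEC library 3, or without liver library 1 or 2, the count of higher members was 2. Fbln2, a matrix protein, had 112, 194 and 202 against 18.4, 8.5 and 13.2 and was higher past 4-fold (3.63), as was Gpm6a, a membrane glycoprotein, with 82.5, 79.7 and 68.7 against 8.58, 9.04 and 9.61 (3.01).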
